A study of Mus musculus with 19 samples.

Results

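This account follows TEAD and YAP binding at 9 genes of the cadherin-catenin and tight junction complexes: the catenins Ctnnd1 (p120 catenin), Ctnna1 (alpha catenin) and Jup (plakoglobin), the cadherins Cdh1 and Cdh2, the tight junction membrane proteins Ocln and Cldn1, and the plaque proteins Tjp1 and Cgn. The genes were selected on the TEAD peak heights of WT livers, with results of these data in view: an intron of Ctnnd1 holds the peak with the highest −log10 p-value and fold enrichment of that list, so its height is given as a description and supports nothing. All 9 were found among the 22367 protein-coding genes of the annotation (GENCODE, NCBIM37, the mm9 assembly). Each gene was examined with 20 kb on either side of its gene model. These windows held 9 of the 5695 TEAD peaks of WT livers, 64 of 36446 TEAD peaks after 3 d of YAP induction and 74 of 38984 after 7 d. They held 5 of the 1478 YAP peaks at 7 d, none of the 156 YAP peaks of WT livers and none of the 110 at 3 d.

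Chromatin immunoprecipitation followed by sequencing was performed on liver of C57BL/6 mice that all carried the ROSA26-rtTA-IRES-EGFP allele, a doxycycline-responsive activator. Livers called WT lacked the tetYAP allele and came from mice on doxycycline food for 7 days; induced livers carried tetYAP, which encodes the activated S127A form of YAP at Col1A1, and received doxycycline food for 3 or 7 days. The activator depended on an albumin-driven Cre, and the authors describe the induction as one in hepatocytes. Whole liver tissue, with its other cell types, was assayed, so more occupied cells and more binding per cell cannot be told apart. The 19 samples formed 6 groups, 3 per group except TEAD at 7 d with 4, and the replicates of a group had been merged before peaks were called. There was thus 1 peak list per group, no spread between replicates and no test across replicates. The age of the mice was not given in the sources used here, and peak lists hold no expression values with which the tissue could be checked.

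Adherens junctions join neighbouring hepatocytes through cadherins, whose cytoplasmic tails bind p120 catenin, beta catenin or plakoglobin, and alpha catenin links this complex to actin. Tight junctions seal the bile canaliculus through claudins and occludin, which are tied to the cytoskeleton by plaque proteins such as ZO-1, the product of Tjp1, and cingulin, the product of Cgn. Junction proteins are known to act upstream of the Hippo pathway, which restrains YAP. TEAD is the DNA-binding partner of YAP and recognises sites with the core letters GGAATG.

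Sequences around the summits of 6 TEAD sites are shown, each the strongest of its gene at 7 d or one where YAP was called. They are a chosen set. Of such sites left out, the strongest of Cdh2, Ctnna1, Jup and Cgn held a core within 100 bp of the summit. The intron 1 site of Cgn and the YAP site of Cldn1, also left out, held none. Each sequence shown is 151 bases of the plus strand of NCBIM37, centred on the TEAD summit at 7 d. Every GGAATG, or its reverse complement CATTCC, is in capitals. The Ctnnd1 (intron 1), Cldn1 (intron 1), Ocln (intron 1) and Tjp1 (intron 8) sites were called in all 3 TEAD lists. The other Ocln site (intron 4, with a YAP peak) and the Cdh1 site (intron 2) were called only in the lists of induced livers.
Ctnnd1, chr2:84475961-84476111: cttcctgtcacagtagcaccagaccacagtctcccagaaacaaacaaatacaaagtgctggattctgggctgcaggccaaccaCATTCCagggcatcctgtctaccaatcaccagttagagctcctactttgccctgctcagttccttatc
Cldn1, chr16:26368222-26368372: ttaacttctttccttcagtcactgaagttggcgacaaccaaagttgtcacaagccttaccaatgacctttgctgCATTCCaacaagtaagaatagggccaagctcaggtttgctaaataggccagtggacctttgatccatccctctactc
Ocln intron 1, chr13:101320982-101321132: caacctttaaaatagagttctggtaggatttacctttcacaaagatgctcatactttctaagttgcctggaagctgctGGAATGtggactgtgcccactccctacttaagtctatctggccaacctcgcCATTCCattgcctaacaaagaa
Tjp1, chr7:72478153-72478303: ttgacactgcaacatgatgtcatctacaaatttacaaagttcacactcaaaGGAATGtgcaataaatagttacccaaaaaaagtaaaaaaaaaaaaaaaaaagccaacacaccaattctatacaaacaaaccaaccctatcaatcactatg
Ocln intron 4, chr13:101296071-101296221: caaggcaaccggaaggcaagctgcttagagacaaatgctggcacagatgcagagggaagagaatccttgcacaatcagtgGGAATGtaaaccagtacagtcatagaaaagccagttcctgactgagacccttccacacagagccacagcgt
Cdh1, chr8:109147514-109147664: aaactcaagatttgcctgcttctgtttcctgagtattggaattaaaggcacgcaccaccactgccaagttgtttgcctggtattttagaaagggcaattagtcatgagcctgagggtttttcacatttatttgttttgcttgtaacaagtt
The fourth capital letter, as printed, lay 11 bp from the summit at Ctnnd1, 2 bp at Cldn1, 21 bp at Tjp1 and 8 bp at the intron 4 site of Ocln. The intron 1 site of Ocln held 2 cores, 1 on each strand, and the Cdh1 site, the strongest of that gene at 7 d, held none in the shown stretch or within 100 bp of its summit.

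Across all their TEAD peaks at 7 d, 33 of the 74 peaks at these genes (44.6%, 95% Wilson interval 33.8 to 55.9%) held the core within 100 bp of the summit, beside 35.2% of all 38953 peaks of that list with a sequence. At 3 d it was 22 of 64 (34.4%) beside 30.4%, and in WT livers 6 of 9 (66.7%, interval 35.4 to 87.9%) beside 48.6%. In each list the share over all peaks lay inside the interval for the 9 genes. The other motif searched was the AP-1 letters TGANTCA on either strand, whose leading TG can coincide with the last letters of the TEAD core. Within 100 bp it lay near 7 of 74 summits at 7 d (9.46%) beside 8.71% of all peaks. At 3 d, 6 of 64 summits (9.38%, interval 4.37 to 18.98%) had it within 50 bp, beside 3.60% of all peaks, below the interval. At that distance in WT and at 7 d, and within 100 bp in each list, the share over all peaks lay inside the interval. Of the 5 TEAD peaks at 7 d that carried YAP, 4 held the core (80.0%), beside 66.2% of all TEAD peaks with YAP; the exception was at Cldn1. Intervals here and below cover counting error only, and tags without molecular identifiers are not independent molecules.

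The pileup, the number of overlapping extended tags at the summit, is given below as deposited and, as rpm, per 1000000 tags of the merged library (35168765 tags for TEAD in WT, 55032002 at 3 d and 38523843 at 7 d). Tags had been extended to fragments of 400 bp in the WT list but 207 and 206 bp in the others, so pileups of WT were not set against those of induced livers as ratios. A rank is the position of a peak by pileup in its own list. A gene missing from a list had no peak past the cutoff of 1e-05, which does not show that binding was absent.

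Among the catenins, the Ctnnd1 peak (chr2:84475651-84476503 in WT, 14.9 kb inside intron 1) had a pileup of 265 in WT, 338 at 3 d and 307 at 7 d. It ranked 9 of 5695 in WT by pileup, against 1 by both −log10 p-value and fold enrichment (35.2-fold), then 4 at 3 d and 21 at 7 d. The site had 6.14 rpm (95% interval 5.50 to 6.83) at 3 d and 7.97 rpm (7.10 to 8.91) at 7 d, a ratio of 1.30 (1.11 to 1.52), while it stood further down its list at 7 d. The remaining 7 Ctnnd1 sites were weak, with pileups between 19 and 37, and were absent from the WT list; their best rank was 16402. The height at this gene thus lay in 1 site.

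Ctnna1, on chromosome 18, had its strongest peak in each list at the promoter (chr18:35278859-35279389 in WT), 0.55 kb downstream of the 5′ end. Its pileup was 38 in WT, 66 at 3 d and 68 at 7 d, which put it at rank 3075, 5188 and 6120. The same gene had 7 TEAD sites in all, none with YAP. Jup, whose product also serves desmosomes, had 7 sites, of which 5 lay in intron 1, and its strongest (chr11:100257218-100257834 in WT) had pileups of 47, 53 and 72 in WT, at 3 d and at 7 d. The Jup site was 1.94-fold higher in rpm at 7 d than at 3 d (interval 1.34 to 2.82), and no YAP peak was called in its window.

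Of the cadherins, Cdh1 encodes E-cadherin and had 9 TEAD sites, 8 of them in intron 2 of its longest coding transcript. The only site called in WT (chr8:109171224-109171773) had pileups of 41, 61 and 59 and ranked 2514, 6081 and 7823. A different intron 2 site (chr8:109147089-109147815), not called in WT, had a pileup of 55 at 3 d and 98 at 7 d, and ranked 7492 and 3001. Its ratio in rpm of 2.55 (1.81 to 3.61) was the highest of the 51 member sites with 1 peak in each induced list. A neighbouring site 3.9 kb away had a ratio of 2.22 (1.53 to 3.24), with pileups of 49 and 76. The strongest binding at Cdh1 thus lay at another site at 7 d than in WT, and no YAP peak was called at any of them.

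Cdh2, N-cadherin, has the longest gene model of the set (220 kb) and had the most sites, 21, with 13 in intron 2 and 4 in intron 1. Its strongest WT peak (chr18:16897583-16898215) had pileups of 52, 89 and 110. At 7 d it was passed by a site 5.8 kb nearer the 5′ end (chr18:16903465-16904027) that was not called in WT, had 85 at 3 d and 123 at 7 d, and had a ratio of 2.07 (1.56 to 2.76). That induced site, and not the site bound in WT, carried the YAP peak of Cdh2, with a pileup of 32 (0.934 rpm, interval 0.639 to 1.32) and rank 470 of 1478. The YAP and TEAD summits were 3 bp apart.

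Of the tight junction membrane proteins, Cldn1 (claudin-1) had its strongest TEAD site and its YAP peak at different places. The intron 1 site shown above had a pileup of 110 in WT, 198 at 3 d (3.598 rpm) and 167 at 7 d (4.33 rpm). These ranked 135, 250 and 691, the strongest of the set after Ctnnd1. No YAP peak was called there, although 50.2% of the 253 TEAD peaks of similar rank (within 1.2-fold) at 7 d carried one. The YAP peak of Cldn1 (chr16:26358216-26358477, pileup 23, rank 1249) lay 9.9 kb further into the gene, in the untranslated part of exon 4. TEAD was called at the site of the YAP peak only in induced livers, with pileups of 68 at 3 d and 85 at 7 d, a ratio of 1.79 (1.28 to 2.49).

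Ocln, occludin, showed the same arrangement. Its strongest TEAD site in every list was the intron 1 site 1.6 kb from the 5′ end, with pileups of 38 in WT, 82 at 3 d and 72 at 7 d, and it had no YAP peak. The YAP peak (chr13:101296031-101296495, pileup 25, rank 1041) sat on the intron 4 site, 26.5 kb from the 5′ end, which had no WT peak and TEAD pileups of 58 at 3 d and 66 at 7 d. TEAD peaks of similar rank to this one at 7 d carried YAP in 2.76% of 2428 cases.

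Of the plaque proteins, Tjp1 resembled Ctnnd1 in that its strongest TEAD site (intron 8) was called in WT and carried the YAP peak as well. Its pileup was 46 in WT, 86 at 3 d and 93 at 7 d, with a ratio of 1.54 (1.14 to 2.10), and the YAP peak (chr7:72478166-72478432, pileup 23, rank 1249) had its summit 91 bp from that of TEAD. Cgn was the only member without a TEAD peak in WT livers, and its window held 12 peaks at 3 d and 13 at 7 d. Most of these belong to a long gene model, however: 1 transcript extends the 26.4 kb of the longest coding transcript by exonic bases to a gene of 126 kb that takes in Selenbp2, and 10 of its 13 sites lay downstream of the shorter transcript. The strongest of them (chr3:94483920-94484495, pileup 84 at 7 d) was nearest to the start of Selenbp2. With the shorter model, 3 peaks remained at 3 d and 3 at 7 d, all in intron 1, the strongest with 58 and 65.

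**Figure D1:**
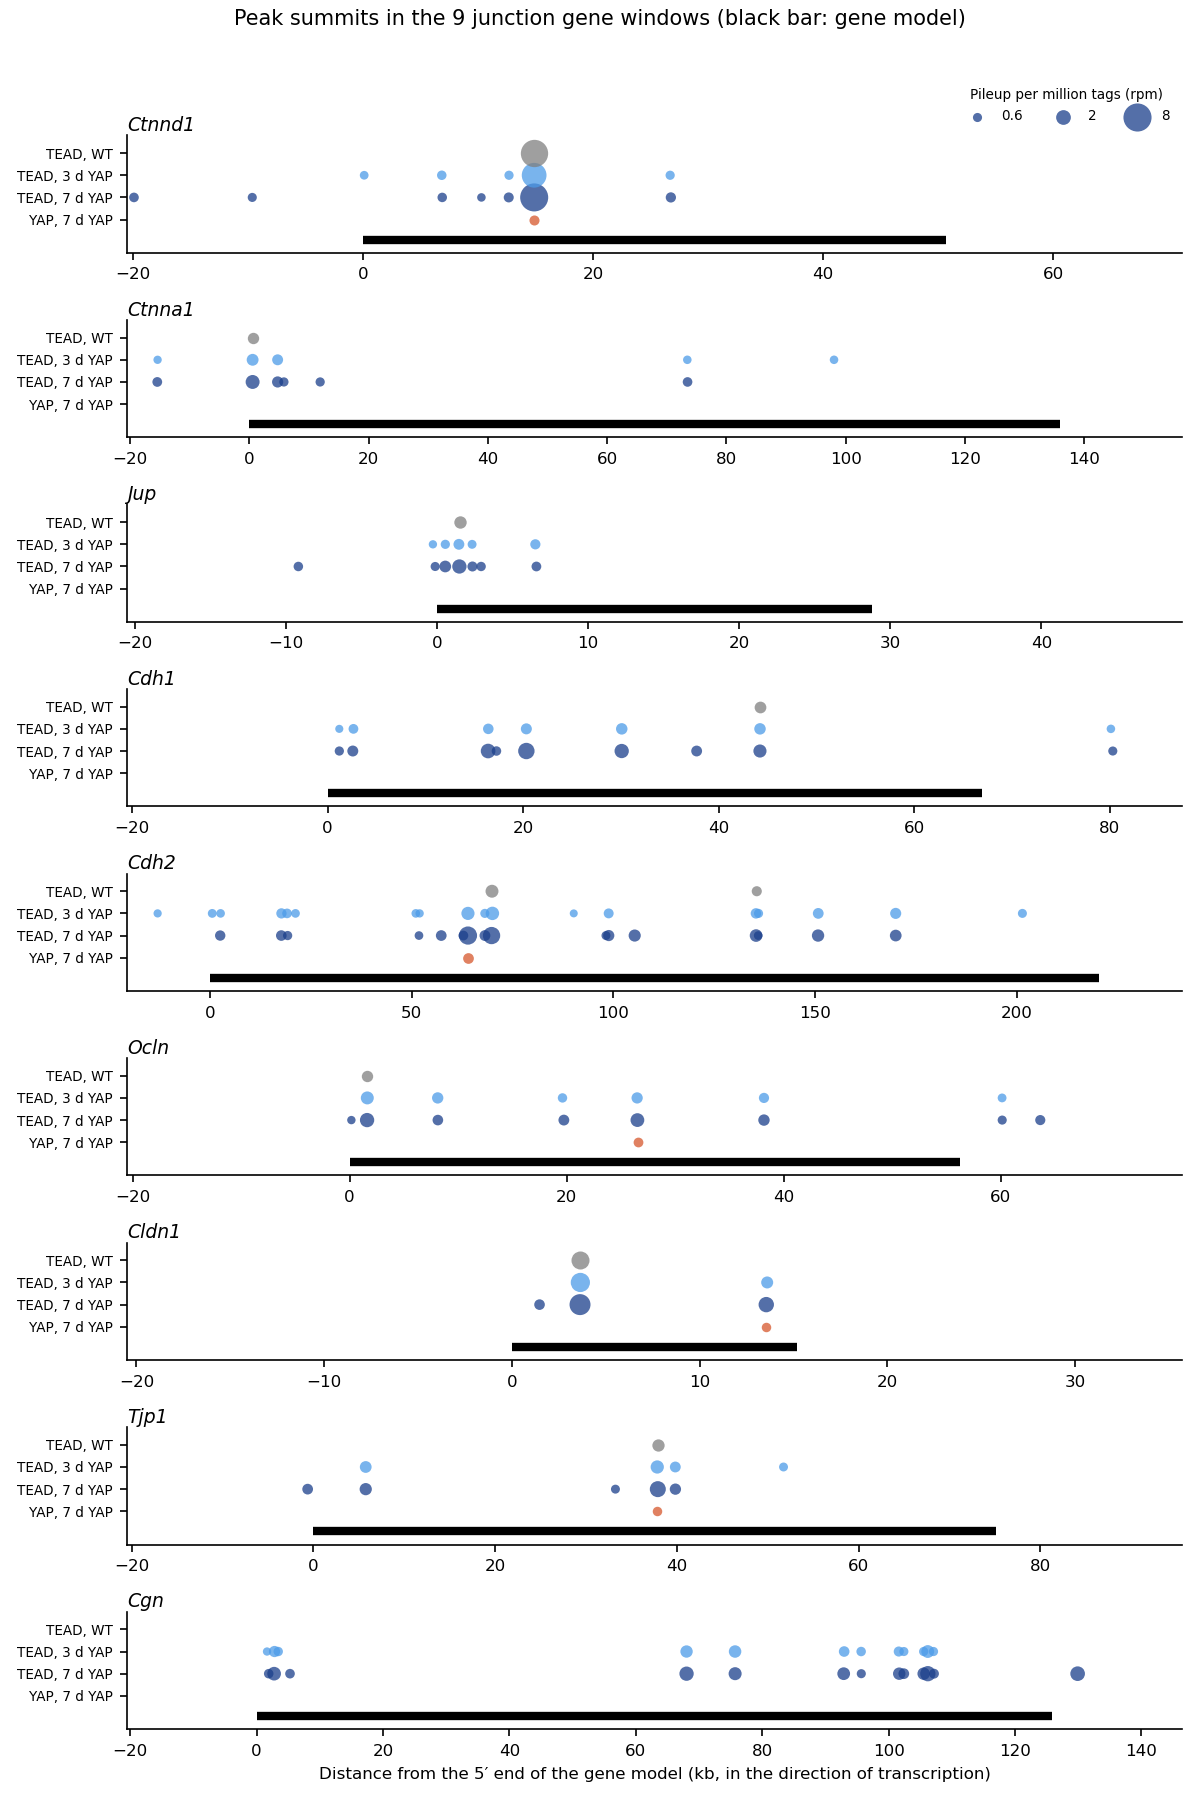
Position of every TEAD and YAP peak summit in the 9 windows, in kb from the 5′ end of the gene model along the direction of transcription; the area of a point grows with pileup in rpm and the black bar is the gene model. The row of WT points holds 1 or 2 points per gene and none at Cgn, and the YAP points at Cldn1, Ocln and Cdh2 stand over places without a WT point.

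By the strongest peak of each gene at 7 d, the order was Ctnnd1 (7.97 rpm), Cldn1 (4.33), Cdh2 (3.19), Cdh1 (2.54), Tjp1 (2.41), Cgn (2.18), Jup and Ocln (both 1.87) and Ctnna1 (1.77). The counting intervals of Ctnnd1 and Cldn1 did not overlap (7.10 to 8.91 and 3.70 to 5.04), whereas from Cldn1 down each gene overlapped the next. The 2.18 rpm of Cgn belong to the peak near Selenbp2; with the shorter model its strongest peak had 1.69 rpm, the lowest of the 9. In WT, whose heights were in view when the genes were chosen, the 6 genes after Ctnnd1 and Cldn1 lay between 1.08 and 1.48 rpm. Their order depends on the score: the strongest Cdh2 peak ranked 1280 by pileup, 2161 by −log10 p-value and 3441 by fold enrichment.

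**Figure D2:**
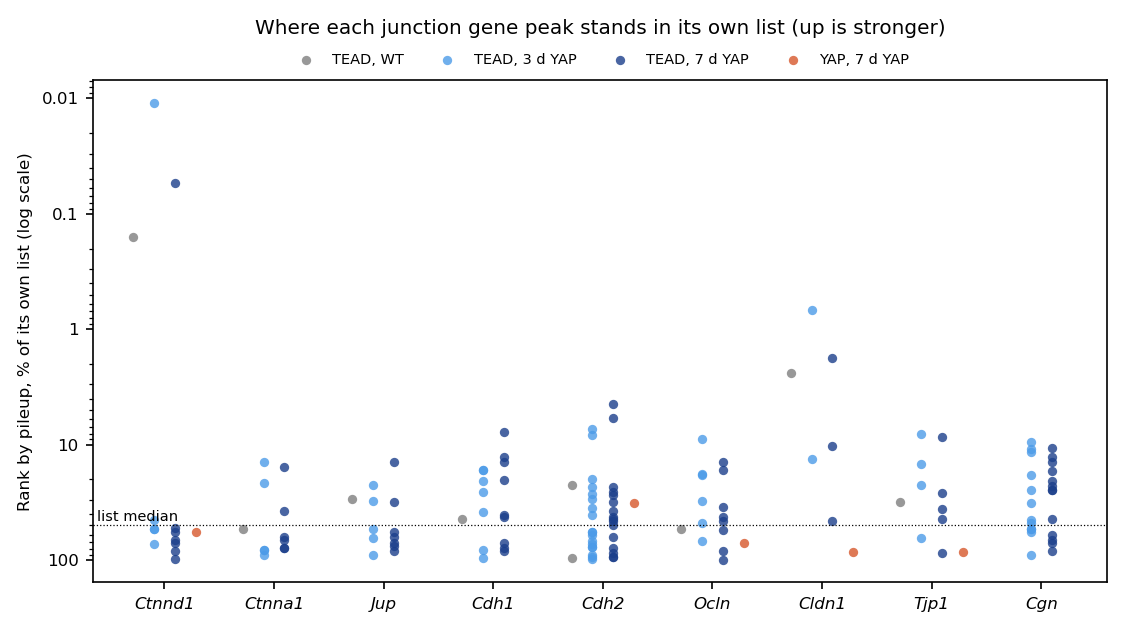
Rank by pileup of each member peak as a percentage of its own list, on a log axis with the strongest at the top; the dotted line is the middle of each list. The Ctnnd1 peak lies within the top 0.158% of all 3 TEAD lists and that of Cldn1 within the top 2.37%, while the YAP points lie between 31.8% and 84.5%.

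A TEAD peak of WT livers was found in 8 of the 9 windows, beside 25.3% of all protein-coding gene windows and 30.5% of the 10438 whose length lay between the shortest and the longest member window. At 3 d all 9 windows held a TEAD peak, beside 65.2% of all and 76.1% of those as long, and at 7 d all 9 again, beside 66.5% and 77.2%. A YAP peak at 7 d was found in 5 of 9 windows, beside 6.33% of all and 7.76% of those as long. YAP was called in none of the 9 windows in WT (background 0.139%) or at 3 d (0.192%). The members were chosen with their binding in view, so these shares are a description and were not tested. The median member window held 1, 5 and 7 TEAD peaks in WT, at 3 d and at 7 d, against 0, 2 and 2 among windows as long. Those windows span a wide range of length and were not matched to each member. Per 100 kb of window, members held 0.793, 5.64 and 6.52 TEAD peaks, against 0.417, 2.69 and 2.78 over all protein-coding gene windows. At the 20 kb limit, the farthest TEAD peak at 7 d that still counted lay 19.8 kb from Ctnnd1 (pileup 27), at the start of 2700094K13Rik, and the nearest that did not lay 21.9 kb from Tjp1 (pileup 44).

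**Figure D3:**
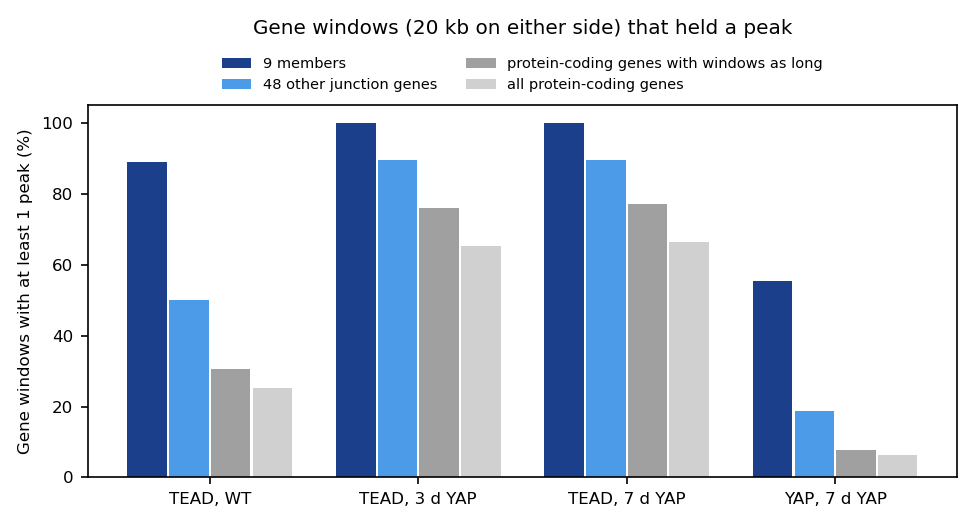
Percentage of gene windows with at least 1 peak in each list, for the 9 members, 48 other junction genes, protein-coding genes with windows in the same range of length, and all protein-coding genes. Members stand at 8 of 9 in WT and 5 of 9 for YAP, above the other bars. The lists of genes were chosen with results known, and the windows of the other junction genes were not matched for length.

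When overlapping TEAD peaks of the 3 lists were joined into sites, the windows held 82 of 47146 sites. Of these, 9 (10.98%) were called in all 3 lists, beside 11.4% of all sites, and every WT site of the members was called again at both times, as were 94.9% of the 5655 WT sites of the genome. Sites called at 3 d and 7 d but not in WT numbered 44 (53.7%), beside 46.1%. A further 20 sites (24.4%) were called at 7 d only, beside 23.7%, and 9 (10.98%) at 3 d only, beside 18.2%. The make-up of the sites at these genes was thus near that of the genome, with 89.0% and 88.0% of sites absent from the WT list. Sites with a WT peak were the stronger ones: their median at 7 d was 1.87 rpm (n = 9), against 0.909 rpm for the 64 without, and over all sites 1.999 against 0.805 rpm. Of the 82 sites, 63 were nearer to a start of their own gene than to that of any other protein-coding gene.

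**Figure D4:**
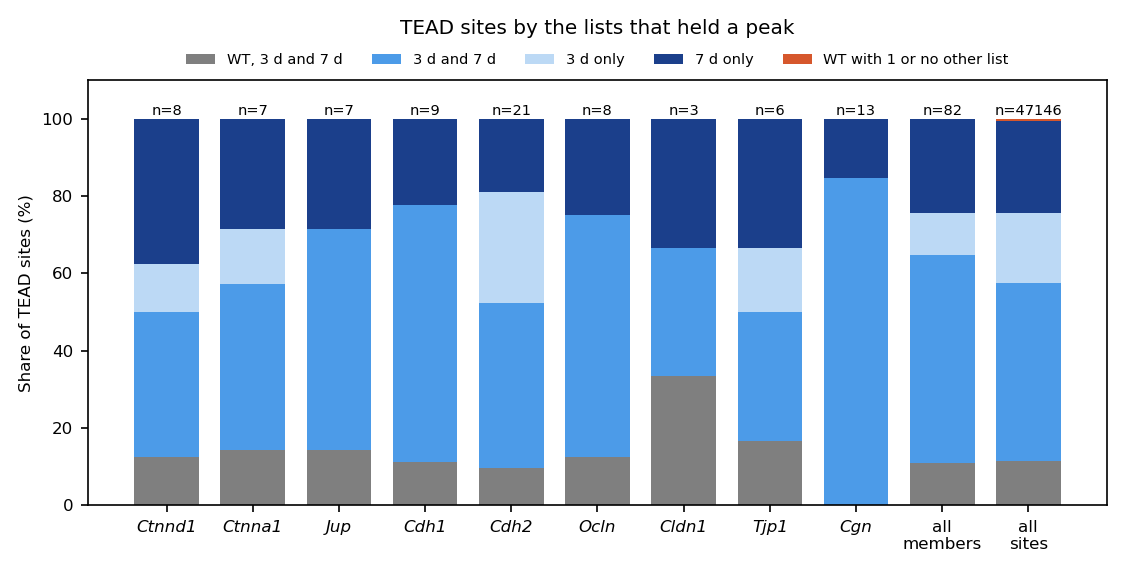
Share of TEAD sites by the lists that held a peak, for each member, all members (82 sites) and the genome (47146 sites). Cgn has no grey segment, and the bar of all members resembles that of all sites, with 10.98% and 11.4% called in all 3 lists.

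Binding between 3 d and 7 d was compared at the 51 member sites with exactly 1 peak in each list. The rpm value was higher at 7 d at 47 of them and lower at 4, with a median ratio of 1.38 and a range from 0.847 to 2.55. Over all 26034 such sites the median was 1.34, and 85.1% were higher at 7 d. At least 1.5-fold higher were 17 member sites (33.3%), beside 34.4% of all, and none was at least 1.5-fold lower, beside 0.737%. The difference was thus near that of the genome, and relative to the median of all sites 4 member sites stood at least 1.5-fold higher, beside 11% of all sites, and of these 2 were in Cdh1, 1 in Cdh2 and 1 in Cgn, near Selenbp2. Summed over its sites, Cdh1 had a ratio of 1.76 (1.52 to 2.05) and Ctnnd1 of 1.27 (1.11 to 1.46), beside 1.45 for all sites; these genes were singled out after their values were seen. Only sites called in both lists entered, here and over the genome, and the lowest called pileups were 20 at 3 d and 16 at 7 d. A site weak at 3 d thus could not be 1.5-fold lower at 7 d and still enter, which limits the counts of lower sites. TEAD libraries of the 2 times differed in depth, and without replicate lists the variation between livers is unknown.

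**Figure D5:**
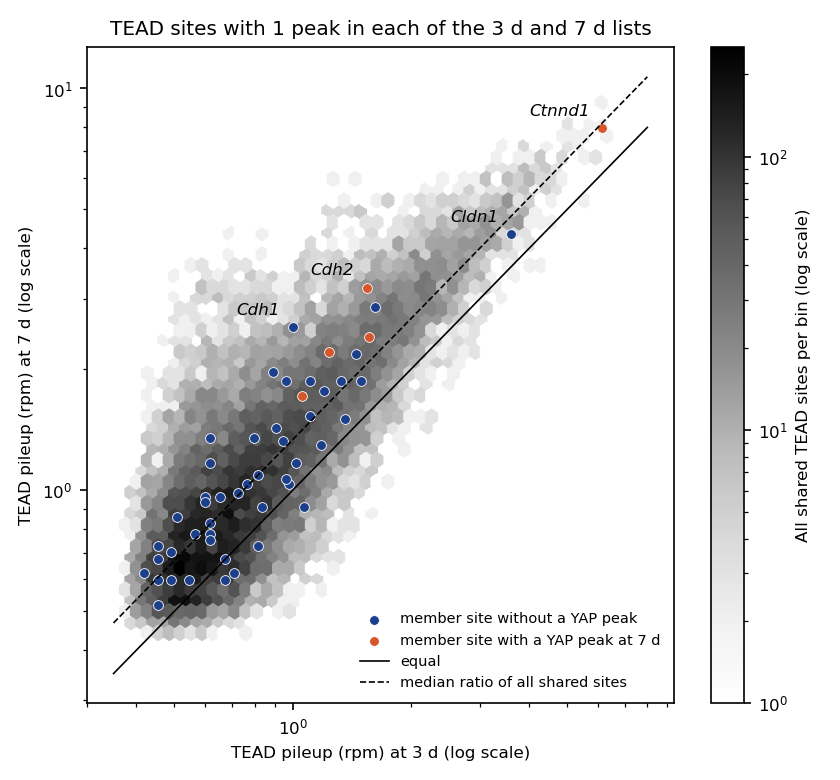
TEAD pileup in rpm at 3 d and 7 d on log axes for all 26034 shared sites (grey bins) and the 51 member sites (points, orange where a YAP peak was called). Most points follow the dashed line of the median ratio of 1.34; the strongest Cdh1 site lies above it and the Cldn1 intron 1 site, without YAP, below.

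Of the 74 member TEAD peaks at 7 d, 5 carried a YAP peak (6.76%), beside 3.58% of all 38984. The share with YAP differed by TEAD rank. Among TEAD peaks of similar rank (within 1.2-fold) to these 5, it was 100% of 8 for Ctnnd1 and 24.0% of 670 for Cdh2. It was 10.1% of 1320 for Tjp1, 7.55% of 1524 for Cldn1 and 2.76% of 2428 for Ocln. The 8 peaks near Ctnnd1 are few: of the 21 TEAD peaks at least as strong as that of Ctnnd1, 11 (52.4%) carried YAP. The member TEAD peaks with YAP had a median pileup of 93 and those without one of 35, and over the genome the medians were 135 and 33. Of the 5 YAP peaks, 2 (Ctnnd1 and Tjp1) lay on sites bound by TEAD in WT and 3 (Cdh2, Ocln and Cldn1) on sites called only after induction, while 54.8% of all YAP peaks at 7 d lay on a WT TEAD peak. All 5 YAP peaks lay on a TEAD peak at 7 d, as did 95.2% of all. They were modest in their list, with pileups of 27 at Ctnnd1, 32 at Cdh2, 25 at Ocln and 23 at both Cldn1 and Tjp1. The YAP peak at Ctnnd1 ranked 839 of 1478. Tissue for YAP had been fixed with an additional protein crosslinker and tissue for TEAD with formaldehyde alone, so heights were not compared between the antibodies. The TEAD antibody was raised against TEAD4 and is reported to recognise other family members.

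Promoters, from 2000 bp before an annotated start to 1000 bp past it, held 1 of 9 member peaks in WT (11.1%), 13 of 64 at 3 d (20.3%) and 13 of 74 at 7 d (17.6%, interval 10.6 to 27.8%). Over whole lists the shares were 34.1%, 32.2% and 29.2%, and among peaks in gene windows as long as those of the members 43.6%, 40.6% and 37.8%. Binding at the members lay in gene bodies outside promoters for 59 of 74 peaks at 7 d (79.7%). The share was 39.7% over the whole list and 46.6% among peaks in gene windows as long. All these windows were drawn around gene models, and those of the members hold mostly gene body sequence. Whether this bears on the difference was not tested. Of the 82 sites, 58 lay in an intron of the longest coding transcript and 3 in an exon. None of the 5 YAP peaks lay at a promoter (interval 0 to 43.4%), beside 18.8% of all YAP peaks at 7 d.

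Among 48 other junction genes, listed with earlier results known, 24 had a TEAD peak in WT and 43 at each induced time. A YAP peak at 7 d was called at 9. Over all protein-coding gene windows the TEAD shares were 25.3% in WT, 65.2% at 3 d and 66.5% at 7 d. That for YAP at 7 d was 6.33%. These shares are also the background for each list below. The windows were not matched for length, and some, such as those of Magi1 and Pard3, were longer than any member window. In the adherens junction list, 7 of 14 genes had a WT TEAD peak and 12 had one at 7 d; YAP was called at Pvrl2 and Mllt4, the genes of nectin-2 and of afadin, which binds nectins to actin. The highest TEAD pileups at 7 d in that list were 201 at Plekha7, which encodes a partner of p120 catenin, and 175 at Pvrl3. Ctnnb1, the gene of beta catenin, had no WT peak, and its highest pileup at 7 d was 32. In the tight junction list, 13 of 23 genes had a WT TEAD peak and 21 had one at 7 d, and YAP was called at Cgnl1, Cldn12, Magi1, Pard3 and Pard6b.

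Magi1, which encodes a junction scaffold, had a TEAD pileup of 234 at 7 d (rank 151) and a YAP pileup of 43, and Cgnl1, the paralogue of Cgn, had 209 (rank 254) and 39. Both YAP peaks were higher than that of any member. In the desmosome list, 3 of 8 genes had a WT TEAD peak and all 8 had one at 7 d, with YAP at the plakophilin genes Pkp2 and Pkp4, which held 2 YAP peaks each. Pkp4, whose product is related to p120 catenin, had the highest TEAD pileup of this list, 233, and ranked 40 in WT; Dsg2 followed with 145. Of the gap junction genes Gjb1, Gjb2 and Gja1, only Gjb2 had a WT peak, and their highest pileups at 7 d were 51 at Gjb1 and 95 at Gjb2. No YAP peak was called at them, and Gja1 had no TEAD peak in any list.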

How the data were processed

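ChIP-seq was performed on liver with antibodies against YAP or TEAD in 19 samples of 6 groups, taken from the sample labels. The authors aligned reads to mm9 with BWA 0.6.2, merged the replicates of a group, and called peaks with MACS2 2.0.9 at a p-value cutoff of 1e-05 against 1 control library of 167176362 tags from earlier published work; the file headers name the same cutoff. The deposited lists give, per peak, the pileup (a signal of coverage at the summit, not normalized), the fold enrichment over control (a ratio), and the −log10 p-value and q-value. Depth was 34260362 to 55032002 tags per list.

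The members and the lists of other junction genes were chosen with earlier results of these data known. Peaks overlapping a gene model with 20 kb on either side (GENCODE on NCBIM37, at least 1 bp) were taken as its peaks, and overlapping TEAD peaks of the 3 lists were chained into sites. Peaks on chromosomes without placement stayed in ranks and in counts over whole lists but entered no gene window, and those on unplaced sequence not held in the genome file had no motif search. Ratios of pileup per 1000000 tags (rpm) carry exact binomial 95% intervals, and shares Wilson intervals. The genes named are all 9 members, with the highest TEAD peak of each list and every YAP peak; of other junction genes, those with a YAP peak at 7 d and the 2 with the highest TEAD pileup at 7 d per list, with Ctnnb1 and Gja1 named after their values were seen. No test was run, since each group is 1 list. Scripts used Python 3 libraries (pandas, numpy, scipy) and were tested on simulated data. Alternatives covered windows, peak cutoffs, site definitions, ranking, scaling and motif.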

Additional observations from a re-analysis of the deposited data

How the results depend on the processing

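No paired analysis was possible because each group's samples were pooled before peak calling, and leaving out a replicate was not possible for the same reason. Of 69 alternative values of main results above 0, 64 stayed within 1.5 times the reported count or inside the counting interval, and none changed direction; the 17 alternatives of results at 0 also gave 0, which most of them could not change. With a −log10 p-value of at least 10, 3 member YAP peaks at 7 d were left of 5; those of Cldn1 and Tjp1 have 9.83 and drop out by construction. Centring on the median of all shared sites lowered the median 7 d to 3 d ratio of the member sites from 1.38 to 1.03, and the sites at least 1.5-fold higher from 17 to 4. The longer motif GGAATGT lay near 15.6% of member TEAD summits at 3 d, beside 14.6% of all peaks. At 7 d it lay near 20.3%, beside 17.6%. Both member shares are lower than those of the 6-letter core by the length of the motif. A shorter Cgn gene model, chosen after seeing the data, gave 64 member TEAD peaks at 7 d in place of 74. Of 52 alternative ranks of the strongest peak per gene and list, 6 differed by over 1.5 times from that by pileup: Ctnnd1 in WT (9, against 1 by both other scores) and at 3 d (4, against 8 by fold enrichment), and Cdh2 in WT (1280, against 2161 by −log10 p-value and 3441 by fold enrichment) and at 3 d (2682, against 4941 by fold enrichment). The share of all gene windows with a peak moved past its counting interval in 14 of 18 alternatives of window or gene set. Each list is 1 merged set, so precision covers counting error only.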
